A study of Mus musculus with 18 samples.

Results

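Microglia of mice in which Tgfb1 was targeted in Cx3cr1-expressing cells were compared with microglia of control mice across all genes that reached a working level. The comparison used 8 of the 18 libraries of the series, 4 from control and 4 from Tgfb1-targeted animals, and 13054 of the 35869 gene symbols listed. Members were all genes that reached 1 TPM in 4 or more of the 8 libraries, whatever their direction of change. TPM, a length-scaled transcript abundance, is a share of the transcripts of a library scaled to a fixed sum. Control mice carried Cx3cr1CreERT2, a recombinase active only after tamoxifen in cells that express the fractalkine receptor Cx3cr1. The mice called KO here had genotype Cx3cr1CreERT2-Tgfb1fl/fl, which adds loxP-flanked alleles of Tgfb1. Recombinase and tamoxifen were thus shared by both groups, and all mice had the C57BL/6 background and received tamoxifen by gavage, 5 doses of 180 mg/kg. Cells were dissociated from whole brain with enzymes and inhibitors and sorted by flow cytometry, and each library came from its own numbered mouse. Ages, the time between tamoxifen and sorting, the sort markers and the deleted exons are not given in the sources used here. Cx3cr1 is also expressed by macrophages at the borders of the brain, so the recombinase is not confined to microglia.

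TGF-beta 1 is a secreted signalling protein that is made with a latency peptide and held inactive until integrins or other partners release it. The released ligand binds the receptors Tgfbr2 and Tgfbr1, which phosphorylate Smad2 and Smad3, and these enter the nucleus with Smad4 to regulate transcription. In microglia, the resident macrophages of the brain, this signal is known for its part in keeping the homeostatic set of surface and secreted genes that separates microglia from other macrophages. The study asked, per its title, whether the ligand that microglia make themselves acts on them in this way.

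Libraries separated by genotype. Pearson correlations of log2(TPM + 1) over the tested genes lay between 0.9455 and 0.9793 among control libraries, between 0.9736 and 0.9858 among KO libraries and between 0.8883 and 0.9123 across genotypes. These are correlations across genes, which are not independent replicates. The labels give a large number of reads in pairs of 61 bp as the sequencing setting, but TPM values keep no depth, so the precision of single values is unknown. Control animals were not all of the same kind. Animals 1 and 2 had RNA of Xist, from the inactive X chromosome, and so had all 4 KO animals, whereas animals 4 and 5 had RNA of the Y-linked gene Ddx3y. In the order of the series, control animals 1 and 2 come before the KO animals and control animals 4 and 5 after them. The kind of control and its place in that order cannot be told apart. List counts in the text that moved by more than 1.5 times with the kind of control are given against each kind. Below, values of control animals are given in the order 1, 2, 4 and 5 and values of KO animals in the order 1 to 4. A log2 difference is the mean log2(TPM + 1) of KO minus that of control microglia with its standard error (SE), which understates changes of genes near 1 TPM. Calls are limma tests over all 13054 genes with a Benjamini-Hochberg adjusted p under 0.05.

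Tgfb1, the targeted gene on chromosome 7 from 25687002 to 25705077 (GRCm38, protein-coding), was low in every library. It was at 3.4, 2.9, 2.9 and 2.8 TPM in controls and at 1.8, 1.3, 1.7 and 2.0 TPM in KO microglia. The groups did not overlap, and the log2 difference was -0.57 ± 0.16 (SE, limma adjusted p = 0.0258). An exact two-sided permutation test over 70 assignments gave p = 0.0286, the smallest that 4 against 4 animals allow. The limma call was lost without KO animal 1, 2 or 3 or without control animal 1 or 4, with adjusted p from 0.0539 to 0.0825 and log2 differences from -0.50 to -0.59. A gene-level value also counts reads from exons that were not deleted, so it is a limited check of the deletion.

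The labelled cell type could be read from its markers in controls but less so in KO libraries. P2ry12, an ADP receptor on chromosome 3 from 59216272 to 59262871, was at 3684, 3441, 4101 and 3761 TPM in controls and at 262, 232, 265 and 206 TPM in KO microglia. Tmem119, a membrane protein used to stain microglia (chromosome 5 from 113793729 to 113800516), was between 3118 and 4130 TPM in controls and between 47.7 and 88.1 TPM in KO microglia. Sall1, a transcription factor of microglial identity (chromosome 8 from 89027235 to 89044162), was between 108 and 129 TPM against 10.2 to 15.8 TPM. The groups did not overlap for these 3 genes. Mmp13, a secreted collagenase on chromosome 9 from 7272514 to 7283331, ran the other way, from 3.2, 0, 2.1 and 1.4 TPM in controls to 593, 616, 666 and 411 TPM in KO microglia. Its log2 difference of 7.90 ± 0.39 (SE, limma adjusted p = 7.6e-07) was the greatest among called genes whose higher group averaged 5 TPM or more. Genes shared by microglia and other macrophages were mixed. Csf1r and Tyrobp moved less than these markers, whereas Itgam and Cybb, given below, moved more than Csf1r. Csf1r, the receptor for the growth factor that macrophages live on, fell from 994 ± 125 to 536 ± 54.5 TPM (SD, n = 4 each), and Tyrobp, an adaptor of activating receptors, was at 4704 ± 824 and 5134 ± 442 TPM (SD, n = 4 each; limma adjusted p = 0.48). Against control animals 4 and 5 alone Tyrobp was called higher, with a log2 difference of 0.36 (limma adjusted p = 0.0333), and against animals 1 and 2 alone the difference was -0.08. In bulk samples such as these, fewer cells of a type and less RNA per cell cannot be told apart.

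**Figure D1:**
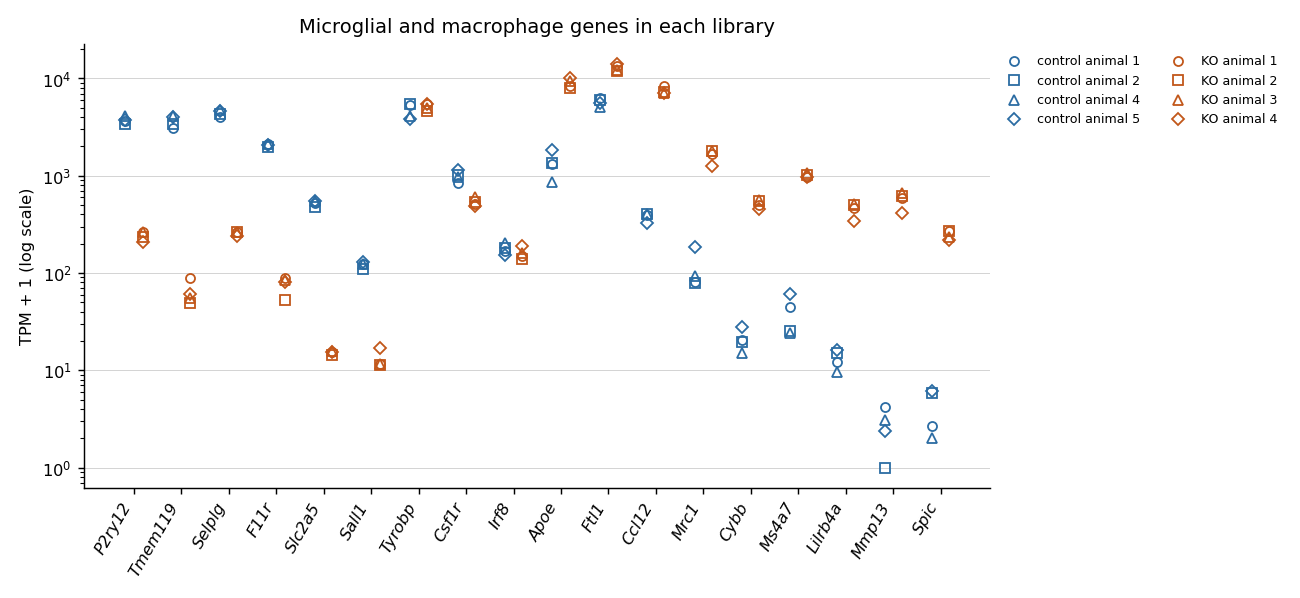
TPM + 1 on a log scale (vertical axis) of 18 genes (horizontal axis) in each of the 4 control (blue) and 4 KO (orange) microglia libraries, with 1 symbol per animal. The 6 genes at the left and Csf1r are lower in every KO library than in any control library, Tyrobp and Irf8 overlap between groups, and the genes at the right, from Apoe on, are higher in every KO library.

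Calls were split evenly between the directions. limma called 3711 of the 13054 genes (28.4%), 1857 higher in KO microglia (14.2%) and 1854 lower (14.2%), with a median log2 difference over all genes of 0.0040. Of these calls, 1791 (13.7% of genes tested) were of at least 1 on the log2 scale, 980 higher (7.51%) and 811 lower (6.21%). A size of at least 3 was reached by 123 higher and 83 lower genes. KO and control values did not overlap for 3988 genes (30.6%), and 3430 (26.3%) of the tested genes were called as well. The filter can favour such genes, because 340 of those tested reached 1 TPM in libraries of 1 group only, and 327 of these were called. In each gene list below at most 3 members were of that kind. Such genes missed the filter once an animal of their group was left out, so their calls could not be checked that way. Counts of list members below are to be set beside the 14.2% of all tested genes called in each direction. The 100 most abundant genes of control microglia held 42 that fell and 28 that rose, and the 100 most abundant of KO microglia held 57 that rose and 18 that fell, with 70 genes in both. Counts were lower against control animals 1 and 2 alone (1747 higher and 1208 lower) than against animals 4 and 5 alone (1921 and 1818).

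**Figure D2:**
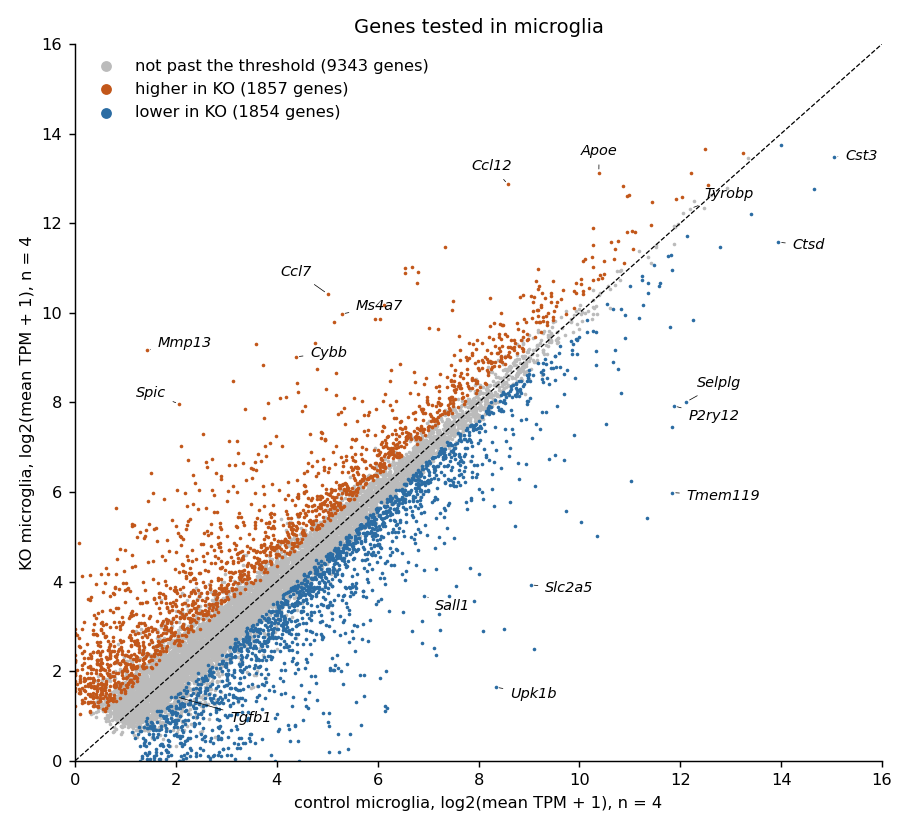
Mean TPM of each of the 13054 tested genes, as log2(mean TPM + 1), in control (horizontal axis) and KO microglia (vertical axis), n = 4 libraries each, with genes called higher in KO in orange and genes called lower in blue. Mmp13, Spic and Ccl7 stand far above the dashed line of equality, and Upk1b, Tmem119 and Slc2a5 far below it.

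Genes that fell made up between 35.3% and 36.7% of all TPM in control libraries and between 16.2% and 17% in KO libraries. Genes that rose went from between 17.6% and 20.5% to between 38.0% and 39.9%. These totals follow from the calls themselves and are given as a description of the libraries. The tested genes that were not called held between 43.7% and 45.4% in controls and between 43.7% and 44.7% in KO microglia.

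**Figure D3:**
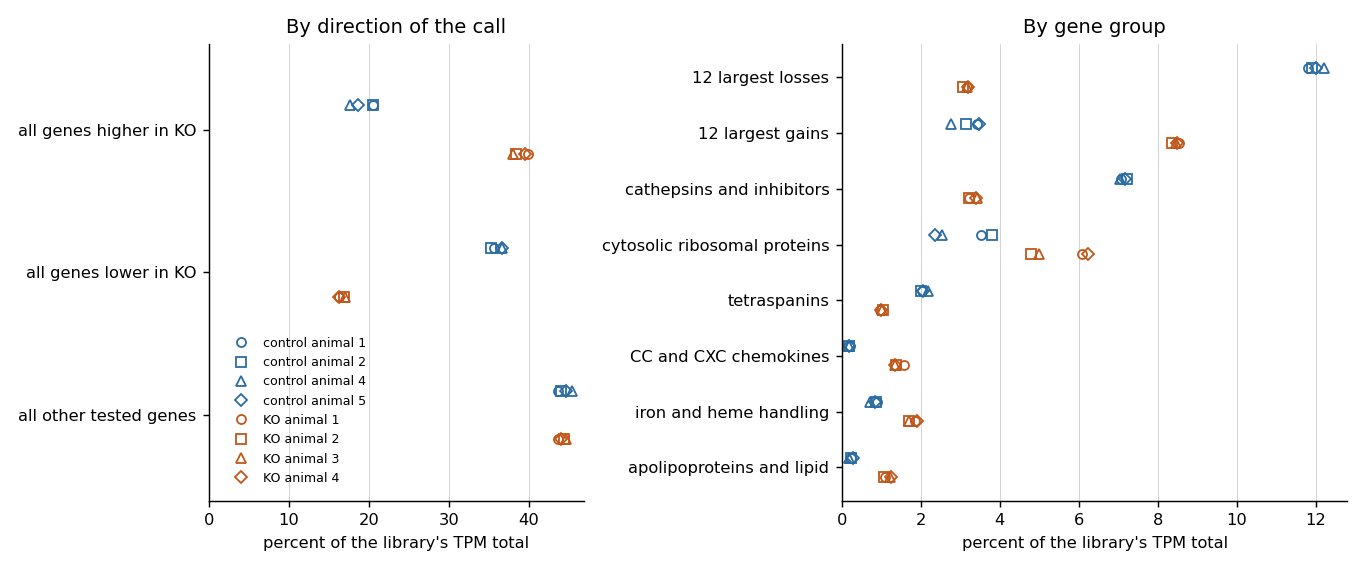
Percent of each library's TPM total (horizontal axes) held by genes grouped by the direction of their call (left) and by selected gene groups (right), with 1 symbol per animal, controls in blue and KO in orange. The 12 genes with the largest losses of TPM go from about 12% to 3.15% of the total, and among the groups at the right the libraries of 1 genotype are most spread out for ribosomal proteins.

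The 12 genes that gave up most TPM were lysosomal, surface and matrix genes that rank near the top of control microglia. Together they held between 11.8% and 12.2% of the TPM of control libraries and between 3.06% and 3.20% of KO libraries. Cst3, which encodes the cathepsin inhibitor cystatin C and ranked first in controls, went from 34678, 35048, 33434 and 32741 TPM to 11662, 10281, 11149 and 12697 TPM. Tmem119 went from rank 29 to rank 2366. Ctsd, the lysosomal protease cathepsin D, fell 5.14-fold, from 15694 ± 890 to 3053 ± 203 TPM (SD, n = 4 each). Others were the tetraspanins Cd81 and Cd9, the protease Ctss, the P-selectin ligand Selplg, the ADP receptors P2ry13 and P2ry12, and the secreted proteins Olfml3 and Sparc. Their ratios of mean control to mean KO TPM ran from 2.28 for Cd81 to 62.5 for Sparc.

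Most of the 10 steepest falls were in genes that were abundant in controls and scarce in KO microglia. Upk1b, a uroplakin of the tetraspanin family, was at 356, 308, 322 and 304 TPM in controls and at 3.5, 1.3, 1.4 and 2.3 TPM in KO libraries (log2 difference -6.75 ± 0.21, SE, limma adjusted p = 5.3e-08). Ecscr, a membrane protein first known from endothelial cells, went from between 475 and 604 TPM to between 1.6 and 8.1 TPM, and Thrsp, a regulator of lipid synthesis, from between 271 and 483 TPM to between 2.2 and 11 TPM. Slc2a5, a fructose transporter, was at 520, 480, 547 and 544 TPM in controls and at 14.4, 13.3, 14.7 and 14.4 TPM in KO microglia. Serpine2, an inhibitor of serine proteases, fell 41.6-fold to 31.3 ± 5.77 TPM (SD, n = 4). KO animal 1 held the highest KO value of Sparc (78.9 against 27.8 to 29.8 TPM in the others), of Tmem119, of Ecscr and of the sialomucin Cd34 (15.1 against 2.8 to 4.4 TPM). Il7r, a cytokine receptor of lymphocytes, and Slco4a1, an organic anion transporter, completed the 10 steepest falls and were at most 0.7 TPM in KO libraries.

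Of 32 homeostatic surface and secreted genes, a list assembled with results of these data known, 31 fell and 1 rose, with a median log2 difference of -2.48. The gene that rose was Gas6, a ligand of the TAM receptors, which help to clear dying cells, from 298 ± 66.4 to 1282 ± 91.3 TPM (SD, n = 4 each). Of 21 tested integrin and adhesion genes (25 listed) 12 fell and 4 rose (median log2 difference -1.16). F11r, a junctional adhesion molecule, went from 2127, 1991, 2140 and 2046 TPM to 87.1, 52.3, 83.0 and 79.3 TPM, and its relative Jam2 from between 61.7 and 80.0 TPM to between 0.5 and 2.8 TPM. Itgam, the CD11b subunit by which microglia are often sorted, fell from 391 ± 22.8 to 53.6 ± 11.4 TPM (SD, n = 4 each). The integrin subunits Itgav and Itgb5 fell as well (log2 differences -1.81 ± 0.20 and -1.22 ± 0.16, SE). Those that rose included Vcam1, a ligand of leukocyte integrins, from 25.2, 52.7, 53.2 and 110 TPM to 575, 1155, 1138 and 876 TPM, and the integrin subunit Itga4, from at most 1.6 TPM to between 22.5 and 28.4 TPM.

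Tetraspanins, small membrane proteins that organise receptors into microdomains, fell for 11 of 18 tested members (22 listed) and rose for 1 (median log2 difference -0.87). Cd9 fell 4.33-fold, from 3545 ± 293 to 818 ± 80.6 TPM, and Cd37 from 157 ± 7.69 to 42.1 ± 4.04 TPM (SD, n = 4 each). Cd63, which resides in late endosomes, was the member that rose, from between 321 and 379 TPM to between 813 and 865 TPM. Among sialic acid-binding Siglec receptors 6 of 7 tested members (9 listed) fell. Siglech was at 316, 307, 312 and 322 TPM in controls and at 102, 97.9, 103 and 101 TPM in KO microglia, and Siglecf fell from 22.5 ± 2.85 to 1.6 ± 0.663 TPM (SD, n = 4 each). Cd22, an inhibitory Siglec known from B cells, rose from between 1.0 and 1.6 TPM to between 7.9 and 11.5 TPM.

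Receptors that sense nucleotides and chemokines moved in both directions. Of 13 tested purinergic receptors and nucleotide enzymes (23 listed) 6 fell and 3 rose. P2ry13, the most abundant of them, went from 5200, 4333, 4951 and 4946 TPM to 1067, 939, 919 and 708 TPM, and the adenosine receptor Adora3 from between 437 and 562 TPM to between 84.8 and 123 TPM. P2rx4, an ATP-gated channel, rose from between 42.5 and 52.2 TPM to between 130 and 156 TPM. Of 6 tested chemokine receptors (20 listed) 4 fell, among them Cx3cr1, the gene whose locus carries the recombinase. Cx3cr1 was at 1580, 1613, 1474 and 1783 TPM in controls and at 549, 469, 503 and 385 TPM in KO microglia. Cxcr3, a receptor for interferon-induced chemokines, rose to between 46.0 and 58.4 TPM from levels that differed between kinds of control, 3.1 and 2.5 TPM in animals 1 and 2 and 16.9 and 18.5 TPM in animals 4 and 5.

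Receptors that signal through the ITAM motif, an intracellular activation sequence, did not share a direction. Of 16 genes of Fc gamma receptors and ITAM signalling 8 fell and 3 rose. Fcgr4, an activating IgG receptor, rose from between 17.5 and 52.1 TPM to between 173 and 266 TPM, and the inhibitory receptor Fcgr2b rose from between 626 and 843 TPM to between 1422 and 1820 TPM. The downstream genes Plcg2, a phospholipase, and Inpp5d, a lipid phosphatase, fell (log2 differences -1.70 ± 0.14 and -1.32 ± 0.17, SE). The count of falls was 5 without KO animal 1, without control animal 4 or without control animal 5, and 4 without KO animal 4, and it was 5 against control animals 1 and 2 alone and 9 against animals 4 and 5 alone. The rises were 2 and 4 against those kinds. Trem2, a lipid-sensing receptor that signals through Tyrobp, fell from 2330.3 ± 187 to 950.4 ± 25.7 TPM (SD, n = 4 each).

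Cathepsins split by member. Of 15 tested cathepsins and inhibitors (17 listed) 9 fell and 5 rose, and the list as a whole went from between 7.03% and 7.23% of TPM to between 3.21% and 3.41%. Ctss was at 6997, 6985, 7225 and 7128 TPM in controls and at 2732, 2861, 2957 and 2862 TPM in KO microglia. Ctsb, a cysteine protease of the same compartment, rose from 2702, 2667, 2786 and 2992 TPM to 5307, 5687, 6008 and 5738 TPM, and Ctsc, which activates serine proteases, rose from between 339 and 540 TPM to between 1088 and 1414 TPM. Legumain (Lgmn) and Ctsl fell (log2 differences -0.99 ± 0.08 and -1.31 ± 0.10, SE). The groups did not overlap for any of these. Other lysosomal hydrolases and membrane proteins gave 6 rises (20.7%) and 4 falls (13.8%) among 29, against 14.2% of all tested genes in each direction. As a whole that list went from between 3.5% and 3.72% of TPM to between 1.82% and 2.0%. Its median log2 difference was 0.04 and 19 members were not called, so the share does not describe a typical member. The lysosomal membrane protein Cd68 was higher in KO microglia, from 2110 ± 126 to 3616 ± 149 TPM (SD, n = 4 each).

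Of 24 glycolysis and lactate genes 11 fell and 3 rose. Ldhb, a lactate dehydrogenase subunit, went from 1121, 960, 889 and 838 TPM to 155, 175, 136 and 151 TPM, and the lactate exporter Slc16a3 from between 6.3 and 9.8 TPM to between 0.2 and 0.8 TPM. The glucose transporter Slc2a1 and hexokinase 2 (Hk2) fell, whereas Gpi1, the enzyme after hexokinase, rose from between 129 and 158 TPM to between 237 and 272 TPM. Gapdh was at 113 ± 12.9 and 103 ± 5.54 TPM (SD, n = 4 each; limma adjusted p = 0.43). Of 18 tested genes of the integrated stress and amino acid response (22 listed) 8 fell and 2 rose, with 1 rise left without KO animal 1, 2 or 3 or control animal 1. Phgdh, the first enzyme of serine synthesis, fell from 273, 273, 198 and 219 TPM to 13.8, 10.2, 9.0 and 10.6 TPM, and Psph, the last enzyme of that route, had a log2 difference of -0.84 ± 0.20 (SE, limma adjusted p = 0.011). Among 23 tested genes of cholesterol synthesis and its control limma called 0 rises and 1 fall, the sterol oxidase Msmo1 (0 and 5 at an unadjusted p under 0.05). Without control animal 2 limma called 4 falls, and without control animal 4 or 5 it called 1 rise. Against control animals 1 and 2 alone it called 1 rise and 1 fall, and against animals 4 and 5 alone 1 rise and 3 falls.

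The 12 genes that gained most TPM included secreted, iron-binding and antigen-presenting genes. Together they went from between 2.77% and 3.46% of TPM to between 8.37% and 8.54%. Apoe, the lipid carrier on chromosome 7 from 19696109 to 19699188, was at 1310, 1336, 866 and 1829 TPM in controls and at 8420, 7961, 9339 and 10084 TPM in KO microglia. Ccl12, a chemokine for monocytes, went from 391, 406, 405 and 327 TPM to 8301, 7223, 7147 and 7145 TPM and from rank 426 to rank 8. Ftl1, the ferritin light chain, rose 2.26-fold to 12934 ± 996 TPM (SD, n = 4) and was the gene of rank 2 in KO microglia. Lyz2, lysozyme, rose 3.90-fold, the MHC class I gene H2-D1 3.16-fold, the platelet factor Pf4 17.5-fold and the membrane protein Ms4a4a 20.5-fold. Trf, transferrin, Ctsb and B2m, the light chain of MHC class I, rose between 1.26-fold and 2.04-fold. The rise of B2m was not called without KO animal 3 or 4 (adjusted p 0.0521 and 0.0546). Cd74, the MHC class II invariant chain, rose from between 684 and 1819 TPM to between 3015 and 4383 TPM, and the remaining entry, Mir5107, is a microRNA gene that lies within Cd74. Reads of Cd74 transcripts and of Mir5107 cannot be told apart here.

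The steepest rises started from low levels in control microglia, at most 38.5 TPM for the genes described here. Spic, a transcription factor known from macrophages that recycle iron, was at 1.7, 4.9, 1.0 and 5.1 TPM in controls and at 272, 272, 232 and 219 TPM in KO microglia (log2 difference 6.06 ± 0.34, SE, limma adjusted p = 1.6e-06). Cd300ld, an activating receptor, went from between 4.2 and 14.3 TPM to between 482 and 759 TPM, and Ccl7, another monocyte chemokine, from between 23.4 and 38.5 TPM to between 1070 and 1651 TPM. Dnase1l3, a secreted nuclease, was at most 1.2 TPM in controls and between 45.5 and 50.7 TPM in KO libraries. Aoah, which inactivates lipopolysaccharide, rose from at most 2.9 TPM to between 71.0 and 96.0 TPM. KO animal 4 had the lowest KO value of Mmp13, Cd300ld, Ccl7, Spic, Lilrb4a and Lilr4b. Lilrb4a and Lilr4b are near-identical neighbours, and Mir511 lies within Mrc1, so reads of these pairs may have been shared.

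**Figure D4:**
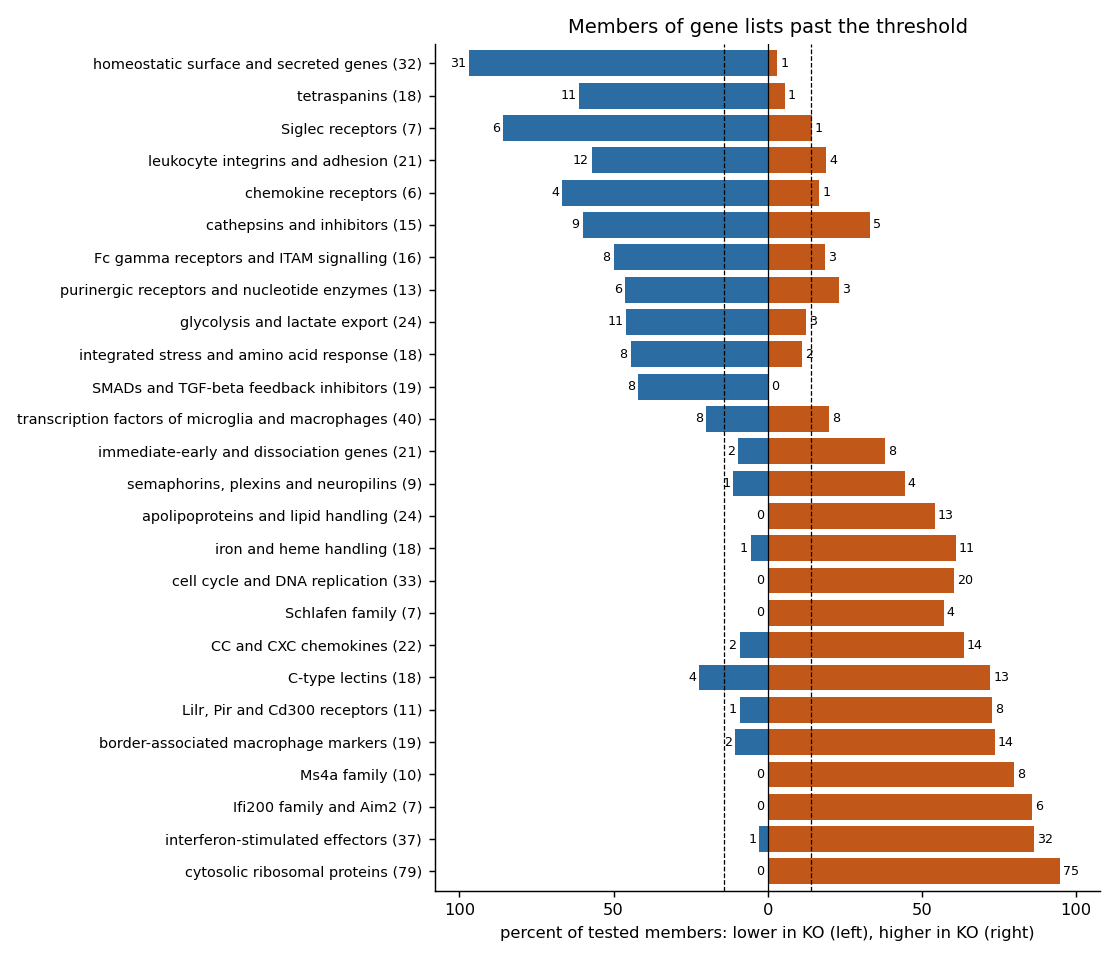
Percent of tested members of each gene list (number tested in parentheses) that were called lower (bars to the left) or higher (bars to the right) in KO microglia, with the number of members at the end of each bar. Dashed lines mark the share of all tested genes called in each direction, 14.2% both ways.

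In the Ms4a family, membrane proteins encoded side by side on chromosome 19, 8 of 10 tested members (15 listed) rose and 0 fell (median log2 difference 2.17; limma, 8 higher and 0 lower at an unadjusted p under 0.05). Ms4a7 was at 44.2, 24.6, 23.4 and 59.6 TPM in controls and at 978, 1005, 1057 and 973 TPM in KO microglia. Of 18 tested C-type lectins (24 listed), many of them receptors for sugars, 13 rose and 4 fell. Clec4a1 rose from between 44.2 and 97.6 TPM to between 1005 and 1291 TPM, and Mrc1, the mannose receptor, rose from 78.9, 78.1, 91.8 and 184 TPM to 1683, 1796, 1778 and 1258 TPM. Those that fell were Clec5a (log2 difference -1.34 ± 0.15, SE) and 3 members of the Cd209 group, Cd209a, Cd209f and Cd209g, of which Cd209g was not called without KO animal 1, 2 or 3 or control animal 1, 4 or 5 (adjusted p from 0.0651 to 0.0986). Of 11 tested Lilr, Pir and Cd300 receptors (15 listed) 8 rose, with Lilrb4a at 11.1, 14, 8.6 and 15.2 TPM in controls and 461, 502, 506 and 340 TPM in KO microglia, and 1, Cd300c2, fell. Members of these families are close in sequence, and how the authors treated reads that map to several places is not given in the sources used here.

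The phagocyte oxidase, which makes superoxide from several subunits, had subunits that rose and subunits that fell. Of 9 tested (11 listed) 2 rose and 2 fell (22.2% each). Against control animals 1 and 2 alone 1 rose and 1 fell, and against animals 4 and 5 alone 3 rose and 1 fell. Without 1 animal the rises numbered 1 to 3 and the falls 1 or 2. Cybb, the catalytic membrane subunit, rose from 19.7, 18.5, 13.9 and 26.9 TPM to 504, 551, 557 and 456 TPM (log2 difference 4.67 ± 0.17, SE, limma adjusted p = 1.6e-07). Ncf1, a cytosolic organiser subunit, fell from 110, 128, 161 and 160 TPM to 24.8, 22.6, 27.4 and 28.2 TPM. Cyba, the partner of Cybb in the membrane, differed by 0.25 ± 0.07 on the log2 scale (SE, limma adjusted p = 0.032), a call that was lost without any 1 KO animal and without control animal 4 or 5 (adjusted p from 0.0654 to 0.0874).

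Of 18 tested iron and heme genes (22 listed) 11 rose and 1 fell, the transferrin receptor Tfrc, from between 8.7 and 13.7 TPM to between 2.6 and 5.8 TPM. Blvrb, a biliverdin reductase, rose from 97.0, 73.2, 58.8 and 75.7 TPM to 450, 397, 419 and 432 TPM, and Cp, the ferroxidase ceruloplasmin, from between 1.6 and 5.5 TPM to between 22.9 and 38.9 TPM. Of 24 tested apolipoprotein and lipid genes (28 listed) limma called 13 higher and 0 lower, against 15 higher and 1 lower at an unadjusted p under 0.05. Pltp, which transfers phospholipids, rose from between 132 and 162 TPM to between 712 and 849 TPM, the scavenger receptor Msr1 from between 6.8 and 15.2 TPM to between 176 and 282 TPM, and the cholesterol exporter Abcg1 from between 318 and 386 TPM to between 705 and 753 TPM.

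Of 37 tested interferon-stimulated effectors 32 rose and 1 fell, Lgals9 (median log2 difference 2.35). Ifitm3, which blocks viral entry, was at 129, 117, 90.0 and 106 TPM in controls and at 1823, 1840, 2130 and 1905 TPM in KO microglia. Of the Ifi200 family of nuclear DNA-binding proteins 6 of 7 tested members rose, 2 of which reached 1 TPM in KO libraries only, and Ifi205 went from between 2.8 and 4.1 TPM to between 104 and 152 TPM. Slfn2, a Schlafen family member, rose from between 104 and 162 TPM to between 700 and 904 TPM. Among 21 cytosolic sensors of nucleic acids 9 rose (42.9%) and 3 fell (14.3%). Zbp1, a sensor of Z-form nucleic acids, rose from between 1.6 and 8.0 TPM to between 46.7 and 81.3 TPM. Tmem173, which encodes the adaptor STING, fell from 255, 248, 284 and 280 TPM to 61.4, 59.4, 66.6 and 65.7 TPM. Of 24 interferon receptor, STAT and IRF genes 7 rose (29.2%) and 5 fell (20.8%), with Irf7, an amplifier of the interferon response, rising from between 2.7 and 9.8 TPM to between 45.5 and 81.8 TPM and Irf5 falling from between 60.6 and 77.5 TPM to between 39.0 and 44.5 TPM. The falls numbered 2 against control animals 1 and 2 alone and 6 against animals 4 and 5 alone.

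Promoters of interferon-stimulated effectors were searched because these genes moved together. Promoters of 250 bases before to 50 after the start were taken from RefSeq (GRCm38.p6) and matched by symbol to 9223 of the tested genes. The letters GAAANNGAA, a shortened interferon-stimulated response element read on both strands, occurred in 13% of promoters of genes that rose, 9.42% of those that fell, 9.02% of all tested genes and 9.76% of all 27025 genes with a promoter. Of 25 effectors that rose and had a promoter 14 (56.0%) held the letters, as did Lgals9, the effector that fell. These effectors were listed as genes that interferon induces, and the letters stand for a response element of interferon. A high share can thus follow from the choice of the list, whatever the genotype. Within the 250 bases before the start alone, 11 of the 25 held the letters. Shown are the 3 of smallest p among these 11. The 120 bases before the start are read 5′ to 3′ on the strand of the gene, with the matched letters in capitals.
Ifitm2 (chr7:140955962-140956081, minus strand): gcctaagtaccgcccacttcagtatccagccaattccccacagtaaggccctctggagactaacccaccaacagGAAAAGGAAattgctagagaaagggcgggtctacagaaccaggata
Oas1a (chr5:120907526-120907645, minus strand): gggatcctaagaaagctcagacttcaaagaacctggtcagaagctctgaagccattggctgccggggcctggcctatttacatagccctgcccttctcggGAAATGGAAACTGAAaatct
Phf11b (chr14:59341331-59341450, minus strand): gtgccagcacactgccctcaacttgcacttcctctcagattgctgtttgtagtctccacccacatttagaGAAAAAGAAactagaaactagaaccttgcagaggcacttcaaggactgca
The match began 46 bases before the start in Ifitm2 and 50 bases before it in Phf11b, and Oas1a held 2 overlapping matches that began 20 and 14 bases before it. Ifitm2 was at 93.8, 67.5, 83.9 and 124 TPM in controls and at 2024, 1884, 2139 and 2131 TPM in KO microglia. Oas1a, which makes the second messenger of RNase L, rose from 13.8, 11.2, 10 and 10.7 TPM to 98.0, 128, 126 and 108 TPM, and Phf11b from 14.9, 10.3, 14.9 and 15.9 TPM to 64.2, 83.6, 75.0 and 65.1 TPM. The groups did not overlap for any of the 3. None of the 21 promoters of homeostatic genes that fell held these letters, nor GAGGAAGT, a shortened site of the factor PU.1, which occurred in 5.69% of promoters of all genes that fell, 5.77% of those that rose and 4.04% of all tested genes. In all, 6 motifs were searched in the same way. TGANTCA, the AP-1 site, was in 6 of the 25 effectors that rose (24%), 2 of the 21 homeostatic genes that fell (9.52%) and 6.15% of all tested genes. The NF-kB letters GGGANTTTC (1.28% of all tested genes), the SMAD letters GTCTAGAC (0.249%) and the CLEAR letters TCACGTGA (2.33%) were in none of the 25 effectors and in 1, 0 and 2 of the 21 homeostatic genes. A match is a string of letters in this window and not a measured binding site.

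Of 40 factors of microglia and macrophages 8 rose and 8 fell (median log2 difference -0.08). Sall1, Sall3, Mef2a and Nfkb1 were among those that fell, with Sall3 going from between 17.8 and 30.2 TPM to between 1.0 and 2.5 TPM. Maf, a factor of macrophage differentiation, rose from 280, 264, 336 and 386 TPM to 750, 738, 946 and 1044 TPM. Pparg, a lipid-sensing nuclear receptor, was at most 0.1 TPM in controls and between 1.9 and 3.9 TPM in KO microglia, and Klf6 rose from between 197 and 229 TPM to between 374 and 431 TPM. Spi1 and Irf8, factors that macrophages share, did not pass the threshold. Spi1, which encodes PU.1, was at 23.2 ± 5.53 and 27.7 ± 6.22 TPM, and Irf8 at 175 ± 20.3 and 159 ± 22 TPM (SD, n = 4 each; limma adjusted p = 0.42 and 0.46), and groups overlapped for both.

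Of 12 tested TGF-beta ligands, receptors and activators (21 listed) 5 fell (41.7%) and 2 rose (16.7%). The rise of Tgfb3, which reached 1 TPM in KO libraries only, could not be checked by leaving out a KO animal. It then missed the filter, so 11 members were tested and 1 rise was left. Among ligands, Tgfb3 was at most 0.1 TPM in controls and at 2.6, 3.1, 2.0 and 1.4 TPM in KO microglia. Among receptors, Tgfbr1 fell from 394, 348, 578 and 472 TPM to 82.6, 92.6, 84.6 and 49.3 TPM, and the co-receptor endoglin (Eng) from between 42.7 and 65.2 TPM to between 10.5 and 14 TPM. Nrros, which anchors latent TGF-beta 1 on microglia, rose from 69.1, 59.4, 93.4 and 94.0 TPM to 181, 214, 229 and 172 TPM. Of 19 tested SMADs and feedback inhibitors (24 listed) limma called 8 lower and 0 higher, against 0 higher and 11 lower at an unadjusted p under 0.05. Pmepa1, an inhibitor induced by the pathway, fell from 55.0, 54.3, 38.9 and 57.1 TPM to 7.3, 5.8, 6.3 and 9.7 TPM, and the repressors Ski and Skil fell by 1.45 and 1.71 on the log2 scale.

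Of 22 tested chemokines (29 listed) 14 rose and 2 fell, Ccl6 and Ccl9, and Ccl9 went from 255, 277, 248 and 252 TPM to 13.3, 18.8, 18 and 18.1 TPM. Among 14 tested inflammatory cytokines and inhibitors (22 listed) 5 rose (35.7%) and 4 fell (28.6%). Il1a fell from between 86.1 and 111 TPM to between 23.1 and 37.8 TPM and Il6 from between 16.9 and 33.8 TPM to between 1.5 and 3.9 TPM, whereas Il18bp, a decoy receptor for interleukin 18, rose from between 1.1 and 6.4 TPM to between 32.7 and 43.4 TPM. Of 16 tested metalloproteinases and their inhibitors (26 listed) 4 rose and 4 fell (25.0% each). The sheddase Adam19 rose from at most 0.5 TPM to between 6.6 and 13.5 TPM, and the sheddase Adam10 fell from between 151 and 313 TPM to between 65.0 and 89.8 TPM. Nrp1, a co-receptor of semaphorins, rose from 73.9, 53.9, 61.4 and 58.2 TPM to 232, 236, 240 and 218 TPM. Growth factors that rose included Igf1, from at most 0.9 TPM to between 9.5 and 14.3 TPM, and Bmp2, from at most 1.7 TPM to between 13.5 and 30.7 TPM, with its highest value in KO animal 4. In the MHC class II group of 14 tested genes (18 listed) 5 rose and 5 fell (35.7% each). H2-Oa, which restrains peptide exchange, fell from 157, 145, 132 and 163 TPM to 8.3, 3.7, 5.0 and 9.4 TPM, while H2-Aa, a chain of the presenting molecule, had a log2 difference of 1.45 ± 0.34 (SE, limma adjusted p = 0.011) with control animal 5, at 807 TPM, nearest to the KO range of 993 to 1633 TPM. The number of class II genes that rose was 3 without KO animal 1, without KO animal 2 or without control animal 2.

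Of 79 cytosolic ribosomal proteins 75 rose and 0 fell (median log2 difference 0.87; limma, 79 higher and 0 lower at an unadjusted p under 0.05), and the list held 3.51%, 3.79%, 2.53% and 2.35% of TPM in controls and 6.08%, 4.80%, 5.00% and 6.22% in KO libraries. Rps29 had values of 513, 758, 622 and 348 TPM in controls and 1797, 1248, 1621 and 2006 TPM in KO microglia. Groups did not overlap for 73 of the 79 members, against 30.6% of all tested genes, but controls 1 and 2 lay above controls 4 and 5. Against animals 1 and 2 alone 48 rose, and against animals 4 and 5 alone 79 rose. Ribosomal proteins have many processed copies in the genome, and the treatment of reads shared with them is not given in the sources used here. Of 52 oxidative phosphorylation subunits 11 rose (21.2%) and 3 fell (5.77%) against all controls. Against animals 1 and 2 alone 2 rose and 4 fell, and against animals 4 and 5 alone 25 rose and 0 fell. The 11 rises went down to 2 without KO animal 1 or without control animal 5, to 3 without KO animal 4 or without control animal 4, and to 7 without KO animal 2. The 3 falls went down to 0 without KO animal 1, 3 or 4 or without control animal 1.

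**Figure D5:**
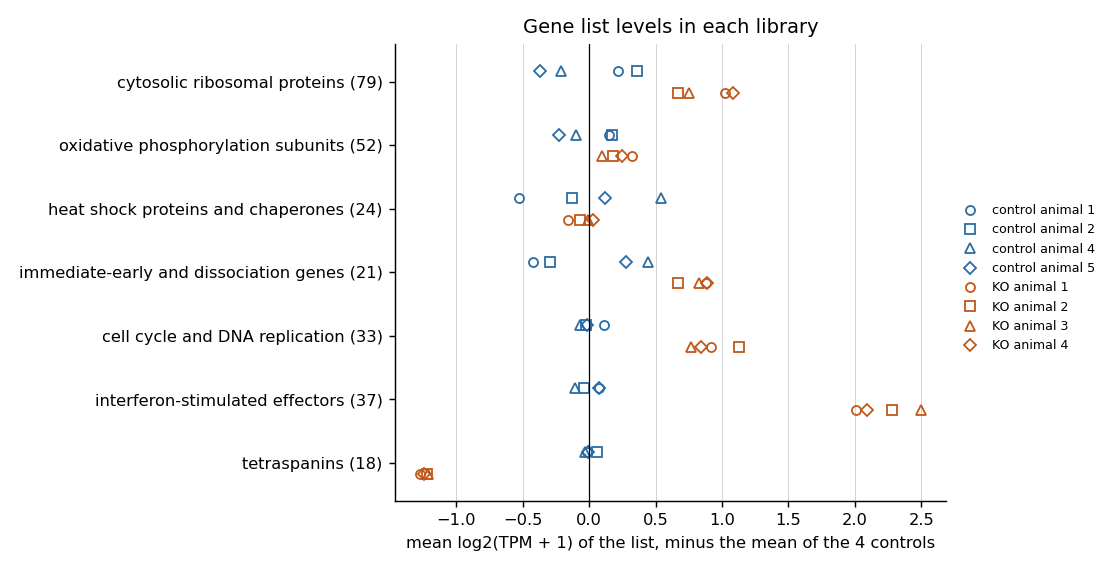
Mean log2(TPM + 1) of the tested members of 7 gene lists (number of members in parentheses) in each library, minus the mean of the 4 control libraries, with 1 symbol per animal, controls in blue and KO in orange. Tetraspanins, cell cycle genes and interferon-stimulated effectors separate the genotypes with little spread among controls, whereas control and KO libraries overlap for heat shock and oxidative phosphorylation genes.

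Of 33 tested cell cycle and replication genes 20 rose and 0 fell (median log2 difference 0.77; limma, 25 higher and 0 lower at an unadjusted p under 0.05), 13 against control animals 1 and 2 and 21 against animals 4 and 5, and 13 without KO animal 2 or without KO animal 4. Ccnd2, which drives entry into S phase, was at 0.9, 0.1, 1.3 and 1.7 TPM in controls and at 17.3, 17.3, 13.7 and 10.8 TPM in KO microglia, and the inhibitor Cdkn1a rose from between 19.0 and 27.4 TPM to between 83.2 and 108 TPM. Top2a, present in dividing cells, was at most 2.4 TPM in controls and between 4.8 and 8.2 TPM in KO libraries. Immediate-early genes, which enzymatic dissociation can induce, rose for 8 of 21 tested members (29 listed) and fell for 2, of which 1 was left without KO animal 2 or control animal 2, 4 or 5. The falls numbered 1 against control animals 1 and 2 alone and 3 against animals 4 and 5 alone. Fos was at 2.4, 4.4, 7.8 and 14.4 TPM in controls and at 186, 100, 146 and 127 TPM in KO microglia, and Dusp1 at 17.5, 35.5, 52.4 and 34.5 TPM against 343, 254, 276 and 275 TPM. The mean log2(TPM + 1) of that list was 4.70 and 4.83 in control animals 1 and 2, 5.58 and 5.41 in animals 4 and 5 and between 5.80 and 6.02 in KO animals. The part of these genes in other results was not tested. Among 24 heat shock proteins and chaperones limma called 0 rises and 2 falls (0 and 4 at an unadjusted p under 0.05). It called 2 rises and 1 fall against control animals 1 and 2 alone, 0 rises and 9 falls against animals 4 and 5 alone, and 1 to 3 falls with 1 animal left out.

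Some of the most abundant genes of microglia differed little. For 2256 genes (17.3%) the 95% interval of the log2 difference lay within -0.5 to 0.5, and 30 of these were called all the same. For 7117 genes (54.5%) neither a call nor such an interval was reached. The 8 most abundant genes with little difference were C1qb and C1qa of the complement starter C1q, Itm2b, Tmsb4x and Pfn1 of the actin system, Actb, Tyrobp and the splicing-related gene Rsrp1. C1qb, first in rank in KO microglia, was at 16135, 16519, 15817 and 16654 TPM in controls and at 12881, 13150, 14383 and 14844 TPM in KO microglia, a small fall that passed the threshold (log2 difference -0.24 ± 0.07, SE, limma adjusted p = 0.031). That call was lost without KO animal 1 or 2 or control animal 1, 2 or 5 (adjusted p from 0.0594 to 0.0906), and quantile normalization turned the difference to 0.58. Pfn1 had a log2 difference of 0.18 and was not called against all controls, but was called higher against animals 4 and 5 alone (0.29, limma adjusted p = 0.0324). Actb was at 5658 ± 250 and 5184 ± 510 TPM (SD, n = 4 each). Aif1, the microglial stain IBA1, was at 777, 703, 602 and 562 TPM and at 679, 548, 584 and 636 TPM with overlapping groups (limma adjusted p = 0.57).

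A few genes were listed at 0 TPM in every library of 1 group. In controls 9 genes were at 0 and at 1 TPM or more in all KO libraries, among them Slc25a31, a mitochondrial ADP/ATP carrier, at 9.6, 6.5, 6.9 and 3.6 TPM in KO microglia, and 4 microRNA genes. In KO microglia 5 genes were at 0, among them the prostaglandin receptor Ptger3, at 8.7, 4.4, 3.8 and 4.6 TPM in controls, and the synaptic adhesion gene Csmd3, between 3.0 and 3.4 TPM. Alb, which encodes serum albumin and is made by the liver, was also at 0 in KO libraries. It was at 30.3 and 24.2 TPM in control animals 1 and 2 and at 1.1 and 2.4 TPM in animals 4 and 5. Its level thus separated animals within the controls, and what that reflects was not tested.

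Called genes that neighbour each other in the genome formed runs in both directions. With positions for 11765 tested genes, 55 runs of at least 4 successive tested genes called 1 way were found, 32 higher and 23 lower, holding 274 genes. Since 28.4% of all tested genes were called, some runs can arise anyway, and the number expected was not worked out. The longest run held 23 lower genes, Taf7 and then the protocadherin gamma genes, of which Pcdhgb4 fell most (by 1.29 on the log2 scale) and Pcdhgb2 least (by 0.90). A run of 8 lower genes was the Ugt1a cluster of chromosome 1, where Ugt1a1 fell by 0.56 and Ugt1a7c by 0.57. Genes of each cluster share their last exons, so the reads of such a run cannot be told apart between its genes. Both runs are part of the counts above. Higher runs included 8 genes that end with Sp140 and Sp100, nuclear body proteins on chromosome 1, and 8 genes on chromosome 17, namely H2-D1, 6 H2-Q genes and, at the end, Tcf19. The H2 genes of that run are close in sequence, so their reads may have been shared. Sp100 rose from between 1.8 and 5.1 TPM to between 14 and 24.6 TPM. A run of 6 lower genes on chromosome 11 ended with Abi3, a regulator of actin, from 93.8 ± 6.88 to 17.9 ± 2.39 TPM, and Gngt2, a G protein subunit, from 113 ± 23.4 to 55.5 ± 6.51 TPM (SD, n = 4 each).

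Markers of other cells were taken from the same files. Of 19 tested markers of border-associated macrophages (20 listed) 14 rose and 2 fell, and their summed level went from between 1746 and 3177 TPM to between 16280 and 18240 TPM, of which Apoe was more than any other member in every library. No marker was at 0 in all libraries. Lyve1 was at 18.7, 4.4, 31.9 and 75.1 TPM in controls and at 8.6, 9.7, 5.4 and 12.1 TPM in KO microglia, Cd163 at between 6.3 and 15.3 TPM and between 8.6 and 17 TPM, and Cd209f and Cbr2 fell, Cbr2 only while KO animals 1, 2 and 3 were kept (adjusted p from 0.0577 to 0.078 without 1 of them). Their part in the rises above was not tested. Monocyte markers summed to between 8.8 and 16.6 TPM in controls and between 29.9 and 35.6 TPM in KO microglia, where Itga4 was the highest member, while Ccr2 fell, with Chil3 at 0 in all 8 libraries and Ly6c2 at most 1.3 TPM. Neutrophil markers summed to between 28.1 and 71.6 TPM in controls and between 11.6 and 13.8 TPM in KO microglia. Csf3r was the highest member in every library and fell, from between 28.0 and 35.5 TPM to between 9.1 and 11.4 TPM. Il1r2, the other tested member, rose from at most 0.2 TPM to between 1.0 and 2.3 TPM. The highest sum was in control animal 2, where S100a8 was at 17.4 TPM and Retnlg at 14.4 TPM, both at 0 in the other controls. Ly6g and Mpo were at 0 in all 8 libraries. Lymphocyte markers summed to between 35.5 and 73.3 TPM in controls, with Il7r the highest, and to between 5.2 and 9.3 TPM in KO microglia. Astrocyte markers summed to between 759 and 1476 TPM in controls and between 501 and 596 TPM in KO microglia. Glul was the highest member in every library, with Slc1a3 next in controls. Of 11 tested members (16 listed) 3 rose and 2 fell (median log2 difference 0.73). The glutamate transporter Slc1a3 fell from 275, 320, 608 and 481 TPM to 33.8, 39.3, 35.7 and 37.5 TPM, while Aqp4 was at most 0.5 TPM and Slc1a2 at most 1.4 TPM. The other fall was Glul, glutamine synthetase, whose groups overlapped, at between 452 and 818 TPM and between 367 and 478 TPM. Those that rose were the aldolase Aldoc, from between 8.7 and 16.9 TPM to between 24.1 and 36.4 TPM, the folate enzyme Aldh1l1, from at most 0.4 TPM to between 1.8 and 2.8 TPM, and the calcium-binding protein S100b, from between 0.8 and 5.9 TPM to between 6.1 and 8.7 TPM. S100b was not called against control animals 1 and 2 alone or without KO animal 1 or 4 or control animal 5 (adjusted p from 0.0549 to 0.103). Aldh1l1 reached 1 TPM in KO libraries only, so it was not tested once a KO animal was left out. Without KO animal 1 there was 1 rise, and 1 fall was left without any 1 KO animal or without control animal 2, 4 or 5, and against control animals 1 and 2 alone. Oligodendrocyte markers summed to between 4626 and 4912 TPM in controls and between 8168 and 9728 TPM in KO microglia, of which Trf, described above, held between 4468 and 4846 TPM and between 8089 and 9609 TPM. Of 12 tested members (14 listed) 1 rose and 1 fell, while 1 rose and 6 fell against control animals 1 and 2 alone, and 7 rose and 0 fell against animals 4 and 5 alone. The fall was not called without KO animal 1 or 4. Neuron markers summed to between 9.8 and 17.3 TPM in controls and between 23.8 and 88.0 TPM in KO microglia. Of 5 tested (13 listed) limma called 2 higher and 0 lower (4 and 0 at an unadjusted p under 0.05), and 1 higher without KO animal 1 or 2. Endothelial markers summed to between 75.2 and 161 TPM and between 33.6 and 124.3 TPM, and mural markers to between 13.4 and 115.2 TPM and between 20.9 and 88.1 TPM. The part of these cell types in other results was not tested. Lyve1, Cd163, Chil3, Ly6c2, S100a8, Retnlg, Ly6g, Mpo, Aqp4 and Slc1a2 were chosen for this paragraph after their values were seen.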

How the data were processed

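RNA of sorted mouse microglia was sequenced as pairs of 61 bp. The authors deposited 1 table of TPM values for each library, with 1 decimal and 35869 gene symbols. Trim Galore 0.4.2, cutadapt 1.9.1, STAR 2.6.1e, featureCounts 1.6.2 and mm10 are named per the submitters' processing notes, without their roles. TPM keeps no depth, so no counting interval could be given, and differences of deposited TPM are differences in shares. Samples were grouped by their titles, with 4 control and 4 KO libraries. A library whose title and sample code name different cell types was left out, and some genes are not reported here.

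Genes that reached 1 TPM in 4 or more of the 8 libraries were fitted as log2(TPM + 1) with limma 3.58.1 (empirical Bayes with a variance trend) in R 4.3.3, adjusted by Benjamini-Hochberg over 13054 genes, and called at 0.05. The p-values measure the spread between animals. The limma step was tested on simulated data. Tables and exact permutation tests used Python 3.11.15 with scipy 1.17.1. Genes with little difference have a 95% interval within 0.5 on the log2 scale. Named genes were Tgfb1, 5 given markers and a set of macrophage and housekeeping genes, the 12 largest gains and losses of TPM, the 10 largest rises and falls, up to 4 called members of smallest p per list and direction (2 as values where none was called), the 8 most abundant genes with little difference, the 5 most abundant genes at 0 in 1 group, per direction, and members of the 5 longest runs. Positions come from GENCODE on GRCm38 and promoters from RefSeq. Members, gene lists and the split of control animals were chosen with earlier results of these data known. Alternatives were other pseudocounts, filters, scalings, weights and variance models, a replicate block, a fit with the astrocyte libraries, subsets of controls and leaving out each library.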

Additional observations from a re-analysis of the deposited data

Results flagged for a closer look

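In 23 of 342 groups of 4 animals, for genes named above other than Csf3r and Il1r2, 1 animal lay apart from the other three by a larger part of the group's range than the 95% critical value of Dixon's test. Chance gives such a gap in about 1 of 20 groups.

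In controls, animal 5 was set apart by high values of 3 genes of other macrophages. Mrc1 was at 184 TPM in it and between 78.1 and 91.8 TPM in the others, Cd163 at 15.3 TPM against 6.3 to 7.3 TPM and Msr1 at 15.2 TPM against 6.8 to 7.6 TPM. Its lead was not confined to these genes. Over the 19 tested markers of border-associated macrophages, mean log2(TPM + 1) was 5.60 in animal 5 and between 4.76 and 4.88 in the other controls. In KO animals it was between 7.20 and 7.36. Pf4 of that list was highest in control animal 1, at 207.8 TPM. Control animal 1 was high for Abcg1, with 385.6 TPM against 318.3 to 326.8 TPM, for Ptger3, with 8.7 TPM against 3.8 to 4.6 TPM, and for Tgfb1, with 3.4 TPM against 2.8 to 2.9 TPM. Control animal 2 was high for Psph, at 15.8 TPM against 9.3 to 10.3 TPM, for Bmp2, at 1.7 TPM against 0 to 0.2 TPM, and for Cd22, at 1.6 TPM against 1.0 to 1.1 TPM. In control animal 4 Pmepa1 was low, at 38.9 TPM against 54.3 to 57.1 TPM, while Mir511 was at 6.9 TPM and listed at 0 in the others. Pparg in control animal 5 and Tgfb3 in control animal 4 were at 0.1 TPM and listed at 0 in the others. That is the smallest step of the deposited values, so it does not set an animal apart.

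In KO microglia, animal 1 had 8300.8 TPM of Ccl12 against 7144.9 to 7222.6 TPM, 78.9 TPM of Sparc against 27.8 to 29.8 TPM, 15.1 TPM of Cd34 against 2.8 to 4.4 TPM, 13.3 TPM of Ccl9 against 18 to 18.8 TPM and 0.7 TPM of Il7r against 0 to 0.1 TPM. KO animal 4 was high for Sall1, with 15.8 TPM against 10.2 to 10.7 TPM, for Bmp2, with 30.7 TPM against 13.5 to 15.3 TPM, and for Cd209g, with 6.7 TPM against 2.8 to 3.3 TPM. The same animal was low for Selplg, with 241.5 TPM against 261.6 to 264.8 TPM. In KO animal 3 Dnase1l3 was at 45.5 TPM against 50.1 to 50.7 TPM.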

How the results depend on the processing

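The counts of genes called, higher and lower stayed within 1.5 times of 3711, 1857 and 1854 under the other pseudocounts, filters, scalings, weights and variance models and in the fit with the astrocyte libraries. Leaving out 1 animal gave 2735 to 3611 called, 1312 to 1849 higher and 1421 to 1762 lower. Against control animals 1 and 2 alone 1208 genes were lower. Genes with little difference, 2256 as reported, numbered 1268 against those controls, 10847 without a filter, 5647 with a pseudocount of 5 TPM, and 1477 to 2073 with 1 animal left out. Runs of at least 5 genes numbered 20, against 55 of at least 4. The 171 genes named and tested that are counted here leave out Csf3r and Il1r2. Among them C1qb reversed, to a log2 difference of 0.58 (0.5841) under quantile normalization, and no other gene turned direction with a call. The fit with the astrocyte libraries ended 14 calls, among them those of Csf1r, Cd68, Cd74, H2-Aa and Hk2. That fit took all libraries as independent, although most astrocyte libraries share a mouse number and genotype with a microglia library. The calls of C1qb, Ccr2 and Tgfb1 were lost against control animals 4 and 5 alone. Against animals 1 and 2 alone the calls of B2m, C1qb, Cd209g, Cyba, Taf7, Tgfb1, S100b and Glul were lost. Replicate numbers are shared by 3 pairs of animals, and the deviations of same-numbered animals correlated at 0.00996, 0.0232 and 0.0026, so the numbers were not taken as pairs. With the replicate block, which only those 3 pairs inform, 2079 genes were called, 1049 higher and 1030 lower, 609 had little difference, and 14 of the named genes lost their call. Of 79 cytosolic ribosomal proteins 28 then rose, and of 52 oxidative phosphorylation subunits 1. Of the 122 counts of list members in either direction, 34 moved by more than 1.5 times with the replicate block, 24 against control animals 1 and 2 alone and 14 against animals 4 and 5 alone. Tgfb1 with the block had a limma adjusted p of 0.177. Depth is unknown from TPM, so no limit of detection could be set.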
